A study of Mus musculus with 15 samples.

Results

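Mzb1 and Il2 are genes whose products mark lymphocytes, and both were measured in mouse brain tissue 14 days into an experiment on intracerebral haemorrhage (ICH), a bleed into the brain. They were taken from the 46 genes that the array names by a RefSeq transcript, among 60823 probes that are not controls, and so make up 2 of those 46. Each gene has a single probe, A_51_P452153 for Mzb1 and A_51_P114222 for Il2, and the probe is printed at 10 spots on every array. The study compared 3 groups of 5 arrays, each array holding 1 sample, and all animals were male. Sham mice were gavaged with distilled water. ICH mice received distilled water at an equal dose. BYHWD mice received Buyang Huanwu decoction, a traditional Chinese herbal formula, by gavage as powder in water at 6.19 g/kg daily for 14 days. The labels call the tissue ipsilateral striatum and the protocol calls it ipsilateral basal ganglia, taken after perfusion with saline. The strain, the age, the way in which ICH was induced and whether the BYHWD mice also had ICH in the same way are not given in the sources used here beyond the title, which speaks of treating intracerebral haemorrhage. Nothing in the labels ties each sample to a separate mouse, so the p-values measure the spread between samples, which may in part be technical.

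Mzb1 encodes a resident protein of the endoplasmic reticulum found in marginal zone B cells, plasma cells and plasmacytoid dendritic cells. It works with the chaperone Grp94 (gene Hsp90b1) in the folding and secretion of antibody. Il2 encodes interleukin-2, a secreted growth factor made mainly by activated T cells. It signals through the IL-2 receptor chains and the kinases Jak1 and Jak3 to Stat5, and drives the expansion of T cells and the upkeep of regulatory T cells. The healthy brain holds few lymphocytes, and they are known to enter it after haemorrhage. The tissue was measured in bulk, so fewer cells of a type and less RNA per cell cannot be told apart.

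The Il2 promoter is short and compact and is a textbook target of NFAT, the factor that calcium signalling activates in stimulated T cells, which is why it is shown here. The stretch below is the 250 bases before the RefSeq start of Il2 (GRCm38.p6, chr3:37125955-37126204, minus strand), read in the direction of transcription. Capitals mark the NFAT core GGAAA on either strand and the TATA box TATAAA.

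Il2: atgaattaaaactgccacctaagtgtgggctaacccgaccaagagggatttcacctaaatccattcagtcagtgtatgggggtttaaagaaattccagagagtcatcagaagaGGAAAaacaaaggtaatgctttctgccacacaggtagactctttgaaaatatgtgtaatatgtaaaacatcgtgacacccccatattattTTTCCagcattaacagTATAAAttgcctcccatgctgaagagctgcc

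The core GGAAA occurred at 2 places, on the coding strand starting 137 bases before the start and on the opposite strand starting 47 bases before it. At least 1 such match on either strand was found in 55.6% of 32851 RefSeq promoter windows of this length. TATAAA occurred at 1 place, 31 bases before the start, and 12.4% of the windows held it on either strand. The AP-1 motif TGACTCA had 0 matches on either strand, and 4.46% of windows held it. None of the matches overlapped another. These are matches of letters and no binding was measured.

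The arrays differed in brightness and in a sign of RNA integrity, and their slides followed the groups in part. The labels name no slide, so slide here means a set of arrays that share a scan identifier. These identifiers put all 5 sham arrays with ICH 2 and ICH 3 on slide 1, the other ICH arrays (ICH 1, ICH 4 and ICH 5) on slide 2, and all 5 BYHWD arrays on slide 3. BYHWD and slide 3 therefore cannot be told apart, while ICH can be set against sham within slide 1 and against itself between slides. Between 81.4% and 86.2% of an array's spots were well above background, a call the scanner software makes for each spot, and no spot was saturated. The 75th percentile of an array's signal was 432 to 540 intensity units in sham, 421 to 453 in the ICH arrays of slide 1, 261 to 303 in those of slide 2 and 274 to 386 in BYHWD. Levels below are log2 of the processed signal minus the log2 of this percentile, so a negative level lies below it, and they compare 1 probe between arrays but not different probes. The Gapdh probes near the 3′ end exceeded those near the 5′ end, a sign of RNA integrity and labelling, by 0.013 to 0.41 (log2) in sham, 0.33 to 0.52 in ICH on slide 1, 0.61 to 0.79 in ICH on slide 2 and 0.32 to 0.60 in BYHWD. This difference was largest in the set where both members were highest, and its part in the results was not tested.

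Mzb1 was detected in every sample. Its probe was well above background on 15 of 15 arrays and on 145 of 145 spots that were kept, and its signal was 2.77 to 13.3 times the 99th percentile of the 308 negative control spots. The level in sham samples 1 to 5 was -3.73, -3.65, -3.44, -3.50 and -3.61. In ICH samples 1 to 5 it was -2.42, -3.18, -3.40, -2.80 and -2.65. In BYHWD samples 1 to 5 it was -2.80, -2.89, -2.88, -3.19 and -2.95. Every ICH and every BYHWD sample was above every sham sample, though ICH 3 exceeded the highest sham sample, sham 3, by only 0.04, which is less than the standard error over spots of either array (0.058 and 0.086). Within ICH the highest samples were the 3 on slide 2, and the ICH and BYHWD values overlapped.

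Il2 was a dim probe. It was well above background on 14 of 15 arrays, the exception being BYHWD 5, where 3 of 9 kept spots had that call, and on 125 of 137 kept spots in all. The level in sham samples 1 to 5 was -4.95, -4.80, -4.87, -4.82 and -5.15. In ICH samples 1 to 5 it was -3.16, -4.87, -4.63, -3.16 and -2.96. In BYHWD samples 1 to 5 it was -4.65, -4.64, -4.45, -4.55 and -4.98. ICH 1, ICH 4 and ICH 5, the ICH arrays of slide 2, stood apart from all others: the lowest of them lay 1.29 above the next sample, BYHWD 3. The other ICH samples, ICH 2 and ICH 3, lay among the sham and BYHWD values.

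**Figure D1:**
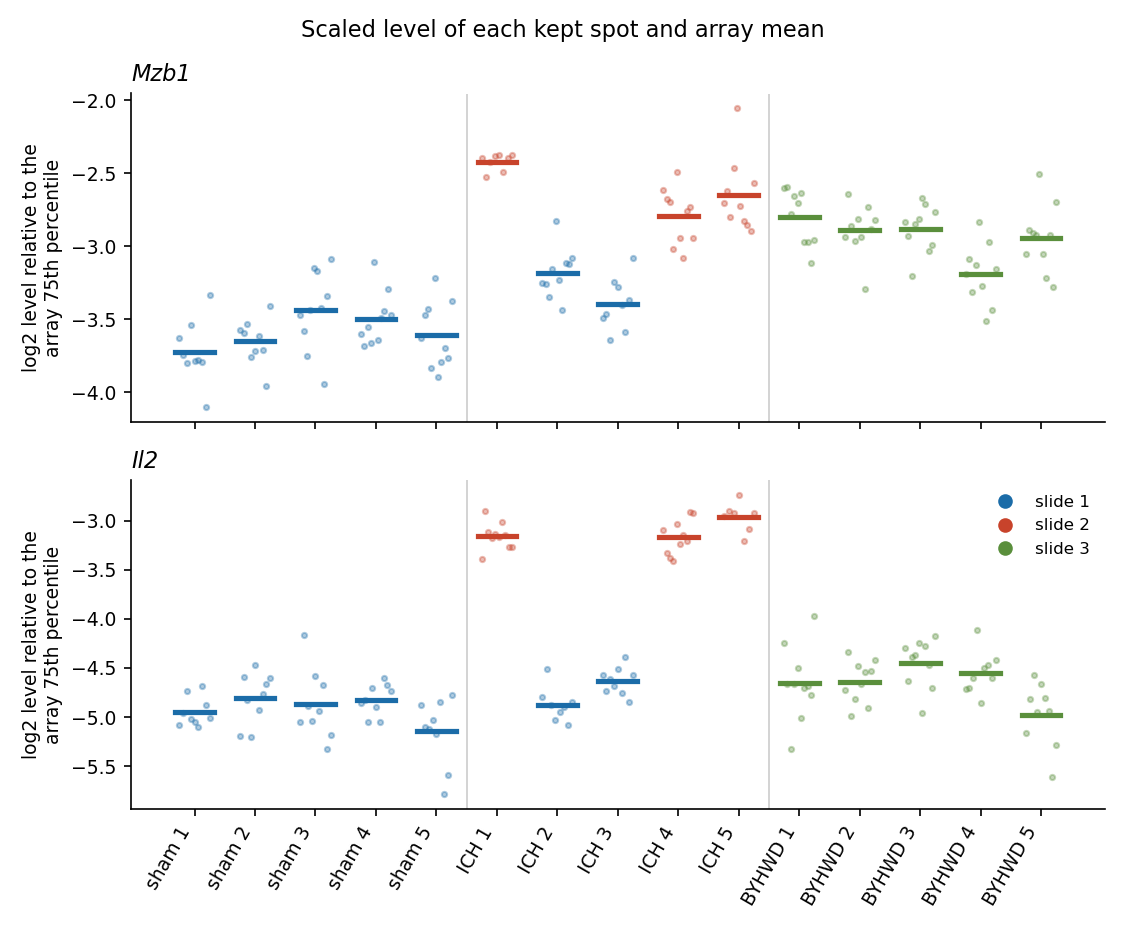
Level of Mzb1 and of Il2 (log2 processed signal minus the 75th percentile of the array) on each of the 15 arrays, by group and coloured by slide. The ICH arrays of slide 2 are the highest for Il2, at -3.16 to -2.96, with the 12 other arrays at -5.15 to -4.45, while for Mzb1 all ICH and BYHWD arrays lie above the sham arrays.

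The 10 spots of each probe show how precise a single array is. The SD between the kept spots of an array had a median of 0.188 (log2) for Mzb1 and 0.212 for Il2, which gave the array means standard errors of 0.020 to 0.086 and 0.043 to 0.118. The scanner software marked 5 of 150 Mzb1 spots and 13 of 150 Il2 spots as outlying, and these were left out. For Il2 all 27 kept spots on the ICH arrays of slide 2 had levels above the highest of the 110 kept spots elsewhere, at -3.97. For Mzb1, 10 of 28 such spots exceeded the highest of 117 elsewhere, at -2.51. In Il2 the step between the ICH slides was therefore seen at every kept spot, and in Mzb1 the spots of the sets overlapped. Il2 spot 10 was left out on every array of slide 1 and on ICH 5, but kept on ICH 1 and ICH 4. Its level was -3.71 and -3.77 in ICH 2 and ICH 3. On slide 2 it was -3.26, -2.92 and -2.59 in ICH 1, ICH 4 and ICH 5.

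The order of the samples shows which neighbours can be separated. In Mzb1 the lowest 5 samples were the sham samples, followed by ICH 3, BYHWD 4 and ICH 2, then the other BYHWD samples, and last ICH 4, ICH 5 and ICH 1. ICH 4 and BYHWD 1 were 0.002 apart, with standard errors over spots of about 0.06 in each. In Il2 the 12 lower samples mixed all groups, and neighbours among them were at most 0.17 apart.

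Before scaling between arrays, the Il2 pattern remained and the Mzb1 groups overlapped. The Il2 signal was 14.0, 16.4, 17.4, 19.1 and 13.3 intensity units in sham 1 to 5. It was 30.4, 15.5, 17.0, 33.8 and 33.6 in ICH 1 to 5. It was 15.3, 14.0, 12.5, 13.0 and 11.8 in BYHWD 1 to 5. The ICH arrays of slide 2 were thus again the highest, with 32.6 ± 1.88 units (SD, n = 3) against 16.2 ± 1.08 (n = 2) in ICH on slide 1 and 16.0 ± 2.39 (n = 5) in sham, although their 75th percentiles were among the lowest. On these arrays 24 of 27 kept Il2 spots were brighter than the brightest kept spot elsewhere, at 28.3 units in sham 3. The 10 Il2 spots left out elsewhere included brighter ones, up to 38.7 units in sham 3, so this count holds for kept spots only. Spot 10 was kept in ICH 1 at 28.2 units and left out in ICH 2 and ICH 3 at 34.5 and 30.9 units. The Il2 signal was 2.46 to 7.99 times the 99th percentile of the negative controls on the slide 2 ICH arrays and 1.09 to 2.59 times on the other 12, so most of the Il2 values rest on signal little above the negative controls.

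The unscaled Mzb1 signal was 32.7, 36.4, 47.0, 47.9 and 38.5 intensity units in sham 1 to 5. It was 50.6, 49.9, 39.9, 43.6 and 41.6 in ICH 1 to 5. It was 55.5, 47.3, 37.2, 33.5 and 48.2 in BYHWD 1 to 5. These ranges overlapped, with means of 40.5 ± 6.68 (SD, n = 5), 45.1 ± 4.86 and 44.3 ± 8.90, and the separation of the scaled levels came with the lower 75th percentiles of the slide 2 and slide 3 arrays. The median probe was 0.48 (log2) lower in ICH than in sham and 0.50 lower in BYHWD than in sham without scaling, so Mzb1 was higher relative to most other probes while its own brightness overlapped between groups.

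**Figure D2:**
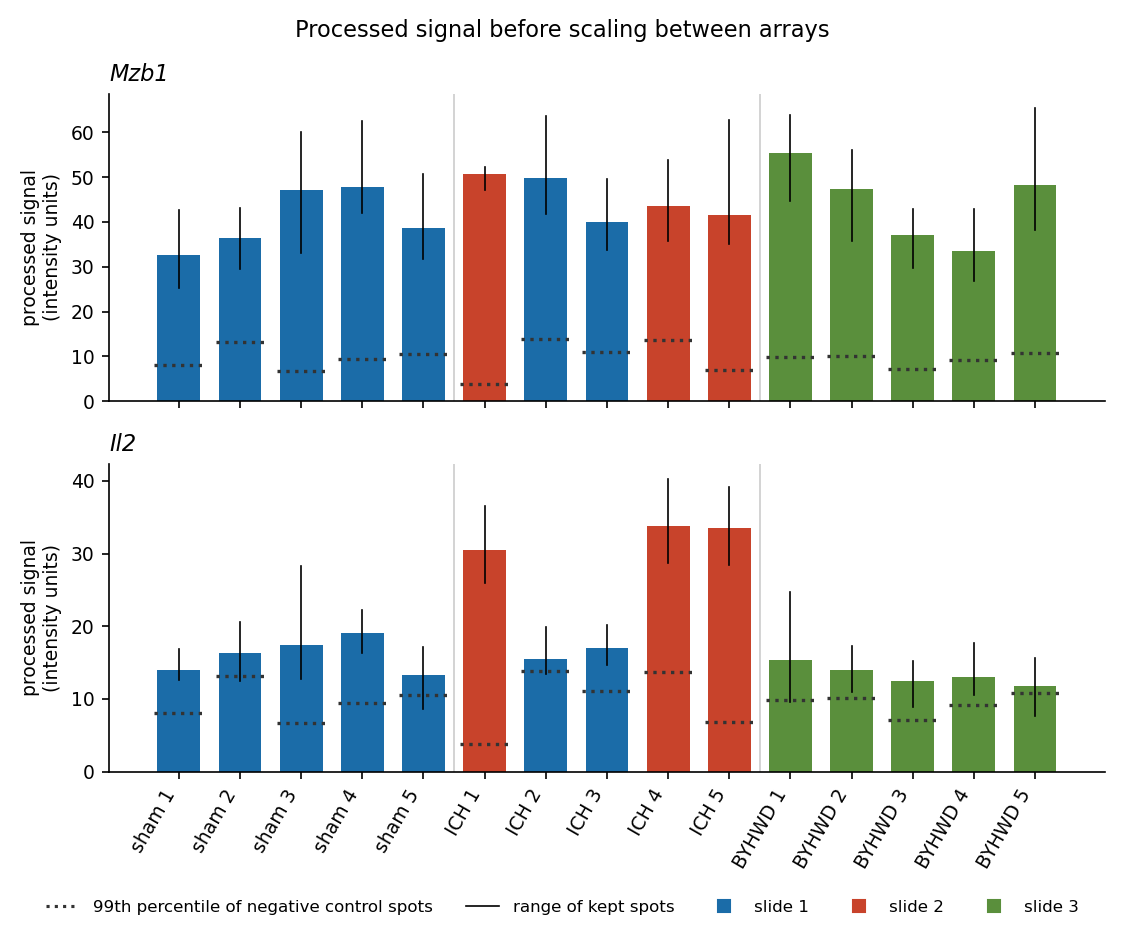
Processed signal in intensity units before scaling, with a bar for the geometric mean of the kept spots, a line for their range and a dotted line for the 99th percentile of the negative control spots. Il2 reaches 30.4 to 33.8 on the ICH arrays of slide 2 and 11.8 to 19.1 on all others, while Mzb1 runs from 32.7 to 55.5 with the groups overlapping.

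The rank of a probe among all probes of its array needs no scaling and gave a similar picture. The percentile rank of Mzb1 was 31.7 to 34.2 in sham, 34.8 to 37.5 in ICH on slide 1, 40.3 to 46.0 in ICH on slide 2 and 37.1 to 40.5 in BYHWD. That of Il2 was 17.3 to 20.4 in sham, 19.7 to 21.5 in ICH on slide 1, 35.4 to 38.5 in ICH on slide 2 and 17.0 to 21.7 in BYHWD. By rank, Mzb1 in sham was below all other samples, and Il2 was raised on the ICH arrays of slide 2 and overlapped between the other sets.

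ICH against sham asks what the haemorrhage changed. Both members were higher in ICH than in sham on average over the 5 ICH samples, and both levels were highest in the samples of slide 2. Mzb1 averaged -2.89 ± 0.40 (SD, n = 5) in ICH and -3.58 ± 0.12 (n = 5) in sham, a difference of 0.69 ± 0.16 (SE) on the log2 scale or 1.62-fold, with a 95% interval of 0.36 to 1.03 and an adjusted p of 0.0266 by limma. Il2 averaged -3.76 ± 0.92 in ICH and -4.92 ± 0.14 in sham, a difference of 1.16 ± 0.31 or 2.24-fold, with an interval of 0.50 to 1.82 and an adjusted p of 0.0431 by limma. Across all 51669 probes tested, 5.03% were called in either direction and 4.07% were called higher, and in 3.95% every ICH sample was above every sham sample. Mzb1 was higher in 5 of 5 ICH samples than in every sham sample, and Il2 in 4 of 5, ICH 2 lying within the sham range.

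Within slide 1, which holds all the sham samples, neither rise passed the test. Mzb1 was -3.29 ± 0.15 (n = 2) in ICH there, 0.29 ± 0.14 (SE) above sham with an interval from just below 0 to 0.59 and an adjusted p of 0.844 by limma. Il2 was -4.75 ± 0.17 (n = 2), 0.17 ± 0.15 above sham with an interval of -0.15 to 0.48 and an adjusted p of 0.989 by limma. In this comparison 0.339% of probes were called, and 3 of the 45 named genes tested were called higher. Both ICH samples of this slide were above every sham sample in Mzb1 and not in Il2, and 7.5% of all probes showed that separation upward. With 2 ICH samples on this slide the upper ends of these intervals are not excluded.

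Between the slides of the ICH group both members differed, although the labels give these samples the same treatment. Il2 was -3.09 ± 0.12 (n = 3) on slide 2, 1.66 ± 0.16 (SE) above slide 1 or 3.15-fold, with an adjusted p of 1.06e-05 by limma. Mzb1 was -2.62 ± 0.19 (n = 3), 0.67 ± 0.15 above slide 1 or 1.59-fold, with an adjusted p of 0.00546 by limma. Without scaling between arrays the Mzb1 step was 0.016 and was not called (adjusted p = 0.959, limma), and that of Il2 was 1.01 and was called (adjusted p = 0.000532, limma). With scaling, 22% of all probes were called between the ICH slides, 11.3% as higher and 10.7% as lower. The shares and gene counts that follow are also of scaled levels, and none was counted without scaling. All slide 2 samples lay above both slide 1 samples for each member, as they did for 30.8% of all probes. A share of 0.385% of all probes had a larger rise than Il2, and 9.08% a larger rise than Mzb1. Of the 45 named genes tested, 4 were called higher on slide 2 (Actb, Il2, Mzb1 and Hyal3) and 4 lower (Olfr166, Pex11a, Lhx1 and Anxa8). Actb, which encodes the cytoskeletal beta-actin and is often used as a control gene, differed by 3.74 on the log2 scale. The scaled levels of both members thus differed between arrays of the same labelled group, as did those of 22% of the probes, and for Il2 this step was larger than its difference between ICH and sham over all samples.

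Set against sham, the ICH samples of slide 2 alone were higher by 1.82 ± 0.13 (SE) in Il2, or 3.54-fold, and by 0.96 ± 0.12 in Mzb1, or 1.95-fold, and both were called by limma (adjusted p of 2.54e-07 and 2.78e-05). In that comparison 36.5% of probes were called and 21.4% were called higher, and in 20.1% all slide 2 ICH samples were above all sham samples, as in both members. ICH and slide 2 cannot be told apart in it.

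**Figure D3:**
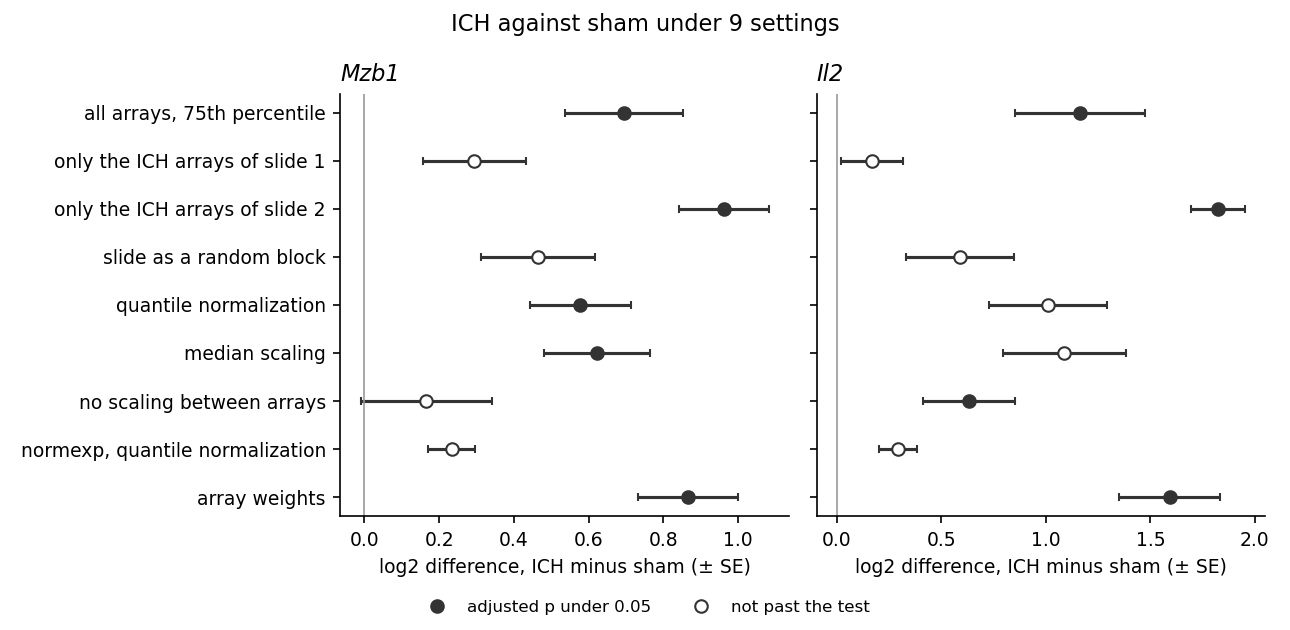
Difference in log2 level between ICH and sham for Mzb1 and Il2, as the estimate with its SE under 9 settings of slides, scaling and fit, filled where the limma adjusted p was under 0.05. Both differences are above 0 in every setting shown, and they are smallest with only the ICH arrays of slide 1 for Il2 (0.17) and without scaling between arrays for Mzb1 (0.17).

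The ICH calls depended on these choices. The Mzb1 difference was 0.46 with slide as a random block (adjusted p = 0.291, limma) and 0.17 without scaling (adjusted p = 0.419, limma). The Il2 difference was 0.59 with slide as a random block (adjusted p = 0.501, limma). It was 0.63 both without scaling and with normexp and the 75th percentile, and passed the test in each (adjusted p = 0.0342 and 0.0214, limma). However, these settings called 22016 and 19435 of the 51669 probes, against 2597 in the main fit. Passing there is therefore not comparable with passing in the main fit. With normexp and quantile normalization the differences were 0.23 in Mzb1 and 0.29 in Il2, and neither passed (adjusted p = 0.0514 and 0.0661, limma). Normexp was run with 50 units added before the log2, which shrinks the log2 differences of dim probes such as these. The sizes of the normexp differences are therefore not comparable with those of the main fit. Leaving out 1 sample at a time, Mzb1 did not pass without ICH 1, ICH 4, ICH 5, sham 1, sham 2, sham 4 or sham 5, and its adjusted p ran from 0.00826 to 0.0872 by limma. Il2 passed only without ICH 2 or without ICH 3, the ICH samples of slide 1, and not in the other 13 of 15 fits. Its adjusted p ran from 0.00455 to 0.132 by limma over the 15.

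BYHWD against ICH asks what the decoction changed. Mzb1 did not pass the test, and its level was -2.94 ± 0.15 (SD, n = 5) in BYHWD, a difference from ICH of -0.05 ± 0.16 (SE) with an interval of -0.39 to 0.28 and an adjusted p of 0.850 by limma. Il2 did not pass either: at -4.66 ± 0.20 it differed from ICH by -0.90 ± 0.31 with an interval of -1.56 to -0.24 and an adjusted p of 0.0853 by limma. In this comparison 6.13% of probes were called in either direction and 2.51% lower, and 0.515% of all probes had a larger fall in level than Il2. The Il2 interval lay below 0, but BYHWD overlapped the ICH samples of slide 1. The Il2 difference was -0.22 with normexp background correction and the 75th percentile (adjusted p = 0.519, limma) and -0.28 with normexp and quantile normalization (adjusted p = 0.0639, limma). The units added in normexp shrink such differences of dim probes, so their sizes are not comparable with the main fit. It passed the test with quantile normalization alone (-0.98, adjusted p = 0.0435, limma) and with array weights (-1.26, adjusted p = 0.00369, limma).

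The sign of the BYHWD difference turned with the ICH slide that served as the comparison. Against the ICH samples of slide 2, Il2 differed by -1.56 ± 0.13 (SE), with an adjusted p of 4.13e-06 by limma, and every BYHWD sample was lower, as in 16% of all probes. Against those of slide 1, Il2 differed by 0.10 ± 0.15, with an adjusted p of 0.750 by limma. Mzb1 differed by -0.32 ± 0.12 from slide 2 (adjusted p = 0.0621) and by 0.35 ± 0.14 from slide 1 (adjusted p = 0.141), both by limma. Of all probes, 27.7% were called against slide 2, with 12.6% of all probes lower in BYHWD, and 7.17% were called against slide 1. Neither comparison lies within a slide, so no value for BYHWD against ICH is free of the slide.

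**Figure D4:**
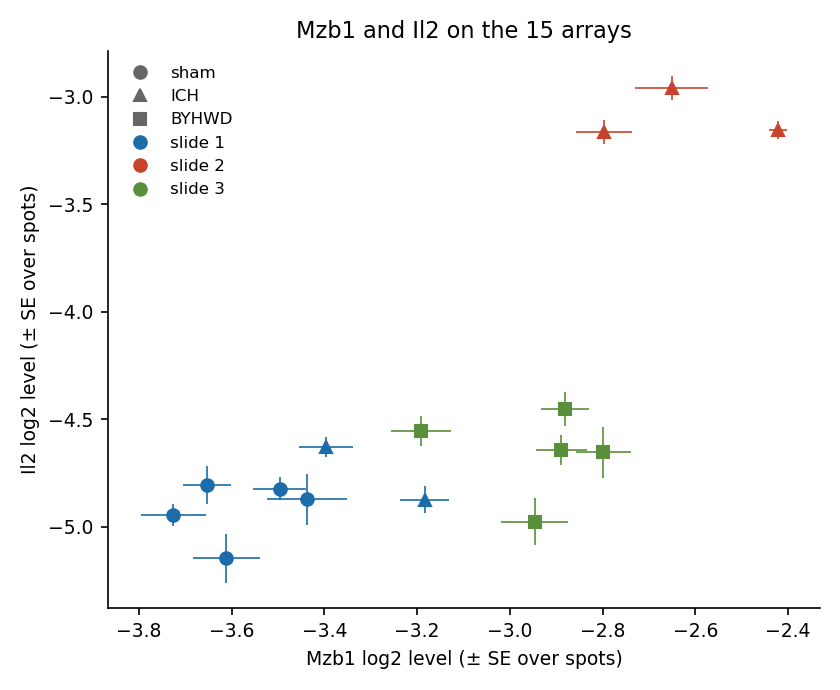
Level of Il2 against level of Mzb1 (both log2 minus the 75th percentile) on each of the 15 arrays, with the group as marker and the slide as colour. The ICH arrays of slide 2 form a set of their own at Il2 levels of -3.16 to -2.96, while the BYHWD arrays lie to the side of higher Mzb1 from the sham arrays, at Il2 levels that partly overlap theirs.

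BYHWD against sham completes the design and shares its sham samples with the ICH comparison. Mzb1 rose by 0.64 ± 0.16 (SE) or 1.56-fold, with an interval of 0.31 to 0.98 and an adjusted p of 0.0133 by limma, and every BYHWD sample was above every sham sample. Il2 differed by 0.26 ± 0.31, with an interval of -0.40 to 0.92 and an adjusted p of 0.589 by limma. The SE pools the spread of all 3 groups, and the Il2 SD was 0.92 in ICH, 0.14 in sham and 0.20 in BYHWD. With only sham and BYHWD fitted, the Il2 difference had an SE of 0.12 and still did not pass (adjusted p = 0.123, limma). In this comparison 17.3% of probes were called, 12.7% as higher, and in 12.3% all BYHWD samples were above all sham samples. Mzb1 was thus among a large share of the array, and all of the BYHWD samples lie on a slide that no sham sample shares. The Mzb1 call was lost with slide as a random block (0.45, adjusted p = 0.640 by limma) and without scaling (0.12, adjusted p = 0.563 by limma). With normexp and quantile normalization it held at 0.21 (adjusted p = 0.0376 by limma), a size that the units added in normexp shrink.

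In ICH against sham, the median probe of similar brightness was higher in ICH, by less than the member, and the spread between such probes was wide. Mzb1 fell into the third decile of probes by mean signal (31.2 to 50.1 intensity units, 5167 probes), where the median difference between ICH and sham was 0.10 against 0.048 over all probes. In that decile 4.35% of probes were called and 3.66% had a larger rise than Mzb1, while the lower quartile of differences was -0.087. Il2 fell into the dimmest decile (5.72 to 18.01 units), where the median difference was 0.17, 4.47% were called and 2.55% had a larger rise than Il2, with a lower quartile of -0.11. Between the ICH slides, the median difference was 0.17 in the decile of Mzb1 and 0.23 in that of Il2, and 11.4% and 1.72% of probes had larger rises than the member. In both comparisons each member lay above the median of its own decile. In BYHWD against ICH the decile medians were 0.025 for Mzb1 and 0.056 for Il2, of the opposite sign to the members' own differences.

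Among the 44 other named genes tested, the profiles most like that of Mzb1 over the 15 arrays were those of Hyal3, Hspb7 and Gm9789. The root mean square difference between centred log2 levels was 0.227, 0.258 and 0.323, set against 0.389 for the SD of Mzb1 itself. A flat profile would score that SD, and the SDs of the 3 genes were 0.384, 0.196 and 0.109. Hspb7 and Gm9789 thus varied less than Mzb1, and Gm9789 was nearly flat. Hyal3, a member of the hyaluronidase family, had -2.89 ± 0.20 (SD, n = 5) in sham, -2.37 ± 0.38 in ICH and -2.16 ± 0.14 in BYHWD. For Il2 the most alike were Mzb1, Carhsp1 and Lhfp, with differences of 0.487, 0.524 and 0.553 against an SD of 0.697. In the other direction Il2 ranked 35 of 44 for likeness to Mzb1, and the same 0.487 exceeds the SD of Mzb1 itself. No named gene thus came close to the Il2 profile relative to its own spread. These likenesses are descriptions over arrays that share slides and scaling.

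The array names few other genes of the pathways in which the members act. Of the 22 genes listed for the IL-2 receptor and its signalling and the 14 common gamma chain and T cell cytokines, Il2 was the only one with a named probe that was tested in each list. Of 21 genes for the control of Il2 in T cells, 0 had such a probe. Of 21 ER chaperones and factors of antibody secretion, Mzb1 was the only one. Of 13 antigen presentation genes, the class I gene H2-Q7 was measured and rose in ICH and in BYHWD against sham. These lists therefore hold no value for the receptor chains, for NFAT or for the partners of Mzb1.

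The same holds for markers of cell types. Of 18 B and plasma cell markers and of 7 plasmacytoid dendritic cell markers, Mzb1 was the 1 measured, and of 17 T cell markers Il2 was the 1 measured, so no second marker of a lymphocyte class could be set beside the members. Of 13 microglia markers, Apoe, a lipid carrier raised in activated microglia and made by astrocytes, was measured and rose in ICH and in BYHWD against sham. Of 8 oligodendrocyte markers, Mbp, a myelin protein, was measured and passed the test in 0 of the 3 comparisons. The lists for NK cells, macrophages and monocytes, neutrophils, striatal neurons, astrocytes, endothelial cells and pericytes, and erythroid cells had 0 named probes, so the labelled tissue could not be checked against markers of its neurons.

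Over the 45 named genes tested, 5 were called higher and 0 lower in ICH against sham, where 4.07% of all probes were called higher and 0.954% lower. Beside the members these were H2-Q7, Apoe and Gsdmd, which encodes the pore-forming protein gasdermin D of pyroptotic cell death, and they were named after their values were seen. Their log2 differences were 1.82 for H2-Q7, 0.94 for Apoe and 0.97 for Gsdmd (adjusted p of 0.0043, 0.0083 and 0.0086 by limma). Within slide 1 these 3 genes also passed, at 1.85, 1.13 and 1.21 (adjusted p of 0.0455, 0.0407 and 0.0354 by limma). Mzb1 and Il2 did not pass there. In BYHWD against ICH 0 were called higher and 2 lower, Nup50 at -0.47 and Trp53rka at -0.35, where 3.62% of all probes were called higher and 2.51% lower. In BYHWD against sham 5 were called higher and 0 lower, namely Mzb1, Apoe, Gsdmd, H2-Q7 and Hyal3, where 12.7% of all probes were called higher and 4.62% lower, so the share of named genes called higher was near that of the array. The named genes that rose in either comparison thus included Mzb1 in both and Il2 in the ICH comparison, which share their sham samples.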

How the data were processed

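Total RNA was labelled with Cy3 and hybridised to 1 Agilent array per sample, per the labels' protocols. Spots were scanned and quantified with Agilent Feature Extraction (version 11.0.1.1 in the headers). Each deposited file gives an intensity per spot, and the values analysed are its processed signal, already corrected for background but not scaled across arrays. Spot calls (well above background, saturated, outlying) come from the same software. A further deposited table has log2 values of 34099 probes, with their making not given in the sources used here. It holds 0 of the 50 probes of the A_51_P kind, so neither member has a value in it.

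Of 62976 spots per array, 1439 are controls. Outlying spots were left out, replicate spots of a probe were averaged as log2, and the 75th percentile of each array over the other probes was subtracted. Probes well above background on at least 5 of 15 arrays were tested (51669), leaving out 132 spike-in, custom or negative probes and 169 with a missing value. Names came from RefSeq accessions matched to the RefSeq gene table, and 46 probes matched. The test was limma 3.58.1 (R 4.3.3, lmFit and eBayes) on all 15 arrays and 3 groups, 2-sided, with Benjamini-Hochberg adjustment over all tested probes and a threshold of 0.05. A second fit divided ICH by slide. The first fit was run on simulated data for ICH against sham, and the second was not. The simulated data had no slide effect and the same SD in every group for a probe. They therefore cannot show how the fit behaves with the slides and unequal spreads of these arrays. Intervals are 95% intervals from the fit, which pools the spread of all groups in it, and the number of arrays limits their precision.

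Genes named are the members, measured genes of the lists and, for each member, the 3 named genes with the smallest root mean square difference of centred levels. Other called genes with a RefSeq name were named after their values were seen. The members and the pathway and marker lists were chosen with earlier results of these data known. Alternatives were other scalings, normexp background correction (offset 50, on the median spot signal in the deposited files and not on the mean as planned), other filters, fits, slide terms and leaving out each sample. The scaling-free fit, the median over spots and the outlying spots kept were added after seeing the data, as were the unscaled and median-scaled fits between the ICH slides.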

Additional observations from a re-analysis of the deposited data

How the results depend on the processing

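Among other scalings and fits, Mzb1 in ICH against sham did not pass with normexp and quantile normalization (0.23), with only the compared groups fitted (0.69), with slide as a random block (0.46) or fixed block (0.29), without the ICH arrays of slide 2 (0.29) and, an alternative chosen after seeing the data, without scaling (0.17). It passed in 19 of 34 alternatives, with an adjusted p of 2.78e-05 to 0.844. Il2 in ICH against sham did not pass with quantile normalization (1.01), median scaling (1.09), normexp and quantile normalization (0.29), no filter on dim probes (1.16), only the compared groups (1.16), slide as a random block (0.59) or fixed block (0.17), or without the ICH arrays of slide 2 (0.17). It passed in 10 of 33, with an adjusted p of 2.54e-07 to 0.989. In BYHWD against ICH, Il2 passed with quantile normalization (-0.98), array weights (-1.26) and only the ICH arrays of slide 2 (-1.56), and was -0.22 and -0.28 with normexp and the 75th percentile or quantile normalization. The offset of 50 in normexp shrinks the differences of dim probes, so the sizes of all normexp values here are not comparable with the main fit. With only the ICH arrays of slide 1, or without those of slide 2, the differences turned to 0.10 in Il2 and 0.35 in Mzb1. In BYHWD against sham, Mzb1 passed in 28 of 30, but not with slide as a random block (0.45) or without scaling (0.12), and Il2 turned to -0.21 and -0.26 there. Between the ICH slides, Mzb1 did not pass without scaling (0.016), while Il2 passed in all 3 alternatives run (1.01 to 1.55). The cause of these shifts was not tested beyond what the arrays left out show.

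Leaving out each sample in turn gave 0.58 to 0.82 for Mzb1 and 0.96 to 1.44 for Il2 in ICH against sham. It gave -0.18 to 0.066 and -1.18 to -0.70 in BYHWD against ICH, where Mzb1 turned positive without ICH 1, ICH 5 or BYHWD 4 and Il2 passed without ICH 2 or ICH 3. It gave 0.61 to 0.71 and 0.21 to 0.34 in BYHWD against sham. With the replicate number as a block, the ICH differences stayed at 0.69 and 1.16 and did not pass (adjusted p = 0.0577 and 0.0775, limma), and no other call changed. No pairing by number was seen. In their deviations from the group means, same-numbered samples of sham and ICH correlated at -0.34 to -0.032. In each of the 3 pairs of groups, 0 of 5 samples correlated best with their own number. Within ICH these deviations include the step between slides, which could hide a pairing, so the check cannot exclude one.

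Over all probes, calls in ICH against sham were 2104 higher and 493 lower, against 509 and 21507 without scaling, and in all alternatives together 26 (without the ICH arrays of slide 2) to 22016 probes were called. In BYHWD against sham, calls were 6543 higher and 2387 lower, against 5083 and 4158 with median scaling, 4907 and 3468 with quantile normalization and 912 and 20827 without scaling. Calls ran from 3 (slide as a random block) to 21739 there, and in BYHWD against ICH from 1 (slide as a random block) to 14332 against 3166. Normexp with the 75th percentile moved the median probe to 0.18 in ICH against sham. The deposited log2 values gave no alternative, since neither probe is among them, and Il2 gave no value when probes had to be well above background on all arrays. Signal little above the negative controls limits the Il2 values outside slide 2.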
